A study of Mus musculus with 16 samples.

Results

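A set of 10 Hippo pathway genes was followed across mouse rhabdoid tumors, namely the kinase genes Lats1 and Lats2, the co-activator genes Yap1 and Wwtr1 (the gene of Taz), the transcription factor genes Tead1, Tead2, Tead3 and Tead4, and Ankrd1 and Amotl2, which the co-activators are known to induce. They were taken by name, and all 10 were found among the 24982 genes of the count table and the 24951 genes of the TPM table. The question was whether tumors of the Shh and Myc subgroups, and Myc tumors of different sites, differed in the genes that carry or report Hippo signaling.

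The tumors came from 16 different mice of the genotype Smarcb1flox/flox;R26-CreERT2 on a mixed 129/SV×C57BL/6 background, in which tamoxifen given to the embryo activated a Cre recombinase expressed from the ubiquitous Rosa26 locus and deleted Smarcb1. There were 5 Shh tumors, all within the brain parenchyma (intra-CNS), 6 Myc tumors inside the skull but outside the brain parenchyma (intracranial Myc) and 5 Myc tumors outside the skull (extracranial Myc). Tamoxifen was given at E6 in all 5 Shh tumors, whereas among the 11 Myc tumors it was given at E6 in 2, at E7 in 1 and at E8 in 8, and the mice were 30 to 180 days old in the Shh, 52 to 170 in the intracranial Myc and 80 to 210 in the extracranial Myc group. The subgroup names came from the study's list of mice and coincided with the labelled sites, so that subgroup and site cannot be told apart, and the tumor of mouse 43990A, extracranial in the labels, is intracranial in that list. Normal tissue and tumors with intact Smarcb1 were not analysed here.

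In the Hippo pathway, the kinases Stk3 and Stk4 activate Lats1 and Lats2, which phosphorylate Yap1 and Taz and thereby keep them out of the nucleus. Unphosphorylated Yap1 and Taz enter the nucleus and bind Tead factors, through which they drive genes of growth, adhesion and the cytoskeleton, including Ankrd1, Amotl2 and, as a negative feedback, Lats2 itself. Since this control acts on the proteins, transcript levels of Yap1 and Wwtr1 do not give the activity of the co-activators.

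Polyadenylated RNA was sequenced, and the reads counted on genes summed to 17889968 in the shallowest and 110177889 in the deepest tumor. The tumors of 29050A, 29941C and 29225D, 1 Shh and 2 intracranial Myc, held at least 67455067 reads and the other 13 at most 50839325, and whether they were sequenced apart is not given in the sources used here. Smarcb1 was at 3.99 to 58.1 TPM in the Shh and 6.48 to 43.7 TPM in the Myc tumors. Of the marker genes of other cell types, the 6 fibroblast markers all fell in the Shh against the Myc tumors and 5 of 6 immune markers did, whereas 5 of 5 oligodendrocyte and 3 of 6 neuronal markers rose, where 26% of all genes passed the threshold. The tumor of 29048 stood apart among the Shh tumors with a summed oligodendrocyte level of 5804 TPM, against 19.8 to 117 TPM in the other 4 Shh and 7.81 to 89.2 TPM in the Myc tumors. Without it the median log2 fold change of the 5 oligodendrocyte markers was 0.57 in place of 5.14, and their calls were lost. In bulk tissue, fewer cells of a type and less RNA per cell cannot be told apart. Levels are given in TPM (transcripts per length, scaled to a fixed sum per tumor), and differences as log2 fold changes of counts after TMM normalization by edgeR. The 2 scales differed between subgroups: over 9934 well-counted genes, a difference of Shh against Myc was 0.53 higher (log2) in TPM than after TMM, and of the genes past the threshold 49.7% were higher in Shh after TMM but 75.5% by limma on log2(TPM + 1). The median log2 fold change over all genes tested was -0.15 and 0.20, respectively.

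Within each group the 10 genes spanned a wide range of levels, and most neighbours in the order of medians overlapped between tumors. In Shh tumors the order by median TPM was Tead2 (304), Wwtr1 (168), Amotl2 (145), Yap1 (126), Tead1 (60.9), Lats1 (47.8), Tead3 (31.5), Lats2 (17.8), Tead4 (0.497) and Ankrd1 (0.126), and only the step from Lats2 to Tead4 separated all tumors. In intracranial Myc tumors Yap1 (130 TPM), Wwtr1 (106 TPM) and Tead1 (78.4 TPM) led by median, followed by Lats2 (37.4 TPM) and Amotl2 (35.1 TPM), and of neighbours in the order only Tead1 and Lats2 did not overlap. In extracranial Myc tumors Wwtr1 (107 TPM), Yap1 (88.7 TPM) and Tead1 (64.2 TPM) led, and Tead4 (0.988 TPM) came last. Tead2 thus ranked first of 10 in the Shh, eighth in the intracranial Myc and ninth in the extracranial Myc tumors.

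**Figure D1:**
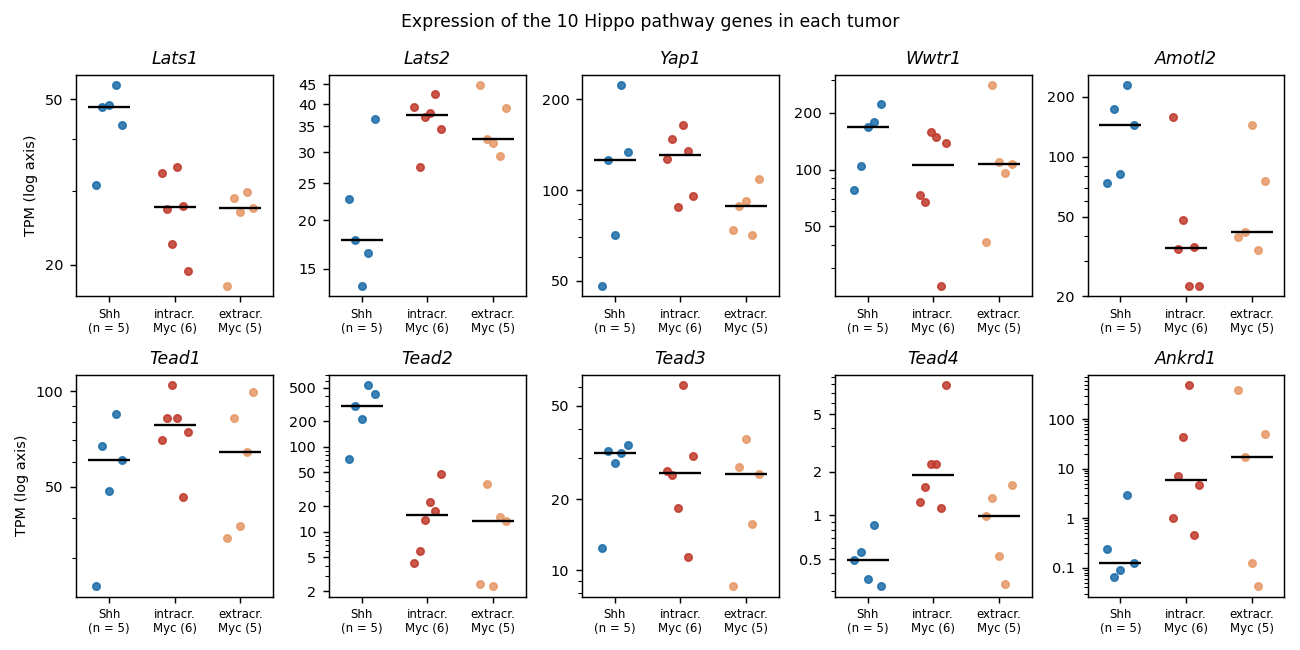
TPM (log axis) of the 10 genes in each of 5 Shh, 6 intracranial Myc and 5 extracranial Myc tumors. Points are tumors and black lines are group medians, and Tead2 is the gene whose Shh tumors (72.2 to 539 TPM) all lie above every Myc tumor (2.27 to 48.4 TPM).

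Between Shh and Myc tumors, 4 of the 10 genes passed the threshold (adjusted p under 0.05, log2 fold change beyond 1 in size), with Tead2 higher in the Shh tumors and Lats2, Tead4 and Ankrd1 lower. Over all 21854 genes tested, 26% passed it, 12.9% higher and 13.1% lower in Shh. The median log2 fold change of the 10 genes was -0.41, against -0.15 over all genes. The tumor of R26P115 was the lowest Myc tumor in the summed fibroblast (529 TPM) and immune markers (356 TPM). Without it and the tumor of 29048, the calls were again Tead2, Lats2, Tead4 and Ankrd1. Without the deep libraries of 29050A, 29941C and 29225D they were Tead2, Lats2 and Tead4. By limma on log2(TPM + 1), 2 genes were called, Tead2 and Amotl2, both higher in Shh, where 18.7% of all genes were higher and 6.06% lower.

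**Figure D2:**
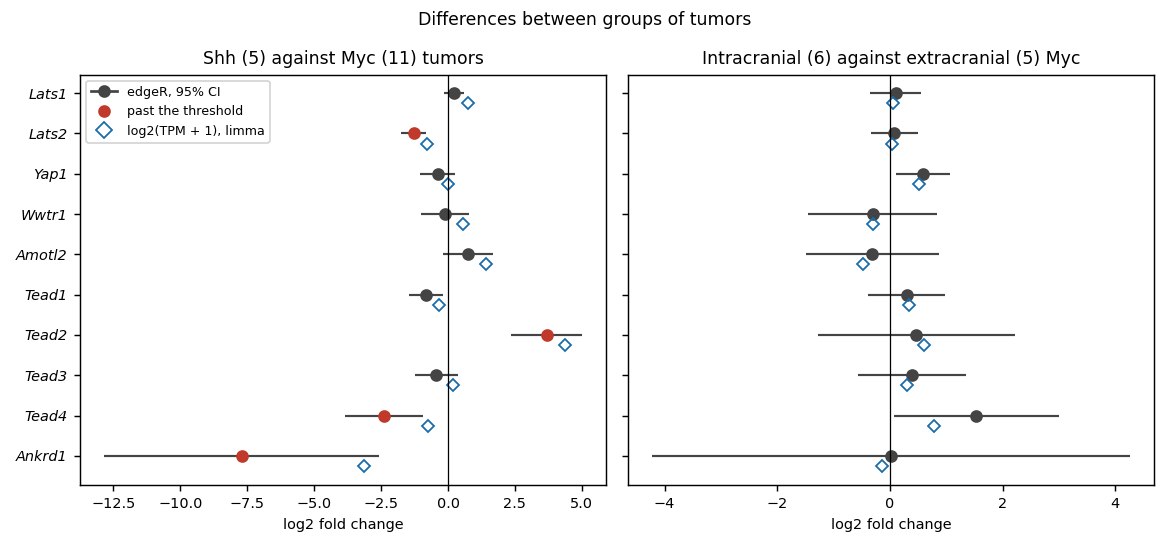
Log2 fold changes of the 10 genes between Shh and Myc tumors (left) and between intracranial and extracranial Myc tumors (right). Circles and bars are edgeR estimates with 95% confidence intervals, red circles passed the threshold, and open diamonds are the same differences on log2(TPM + 1), which on the left lie to the right of the edgeR estimates for all 10 genes.

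Lats2, the kinase gene that the co-activators induce (chr14:57689662-57758388, minus strand, GRCm38), was lower in the Shh tumors. It was at 22.7, 17.8, 13.5, 16.4 and 36.5 TPM in the Shh tumors of 29048, 29050A, 38594A, R26P87 and R26P98. In the 11 Myc tumors its lowest level was 27.5, its median 37.0 and its highest 44.9 TPM. Of the 5 Shh tumors, 4 thus lay below every Myc tumor, and that of R26P98 lay among them. The log2 fold change was -1.28 (standard error 0.23, 95% confidence interval -1.76 to -0.81, edgeR adjusted p = 0.000467), which is 2.44-fold lower. It ranged from -1.57 to -1.15 on omission of single tumors. On log2(TPM + 1) the difference was -0.79 (limma adjusted p = 0.00243), below the fold threshold, and it was -0.93 among the numbered mice (3 Shh, 8 Myc) and -0.63 among the mice named R26P (2 Shh, 3 Myc).

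Lats1, the paralogous kinase gene (chr10:7681214-7716460, plus strand), was at 31.1, 47.8, 48.5, 54.2 and 43.3 TPM in the Shh tumors of 29048, 29050A, 38594A, R26P87 and R26P98, and at 17.8 to 34.3 TPM (median 27.3) in the Myc tumors. All Shh tumors but that of 29048 were above every Myc tumor on this scale. All 5 were above the extracranial Myc tumors, from which 27.5% of all genes were separated without overlap in TPM. After TMM, however, the log2 fold change was 0.21 (standard error 0.17, interval -0.16 to 0.58, edgeR adjusted p = 0.359), so that no change was called and a difference of up to 0.58 lies within the interval. On log2(TPM + 1) the difference was 0.73 (limma adjusted p = 0.0018), below the fold threshold, with 0.60 among numbered and 0.96 among R26P mice. The test result thus depended on the scale. The share of Lats2 in the sum of Lats1 and Lats2 does not depend on the scaling between tumors. It was 42.2, 27.2, 21.8, 23.3 and 45.7% in the same 5 Shh tumors and 49.5 to 71.7% (median 54.2%) in the Myc tumors. Shh tumors thus held relatively less Lats2 than every Myc tumor.

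The co-activator genes did not pass the threshold between the subgroups. Yap1 (chr9:7931999-8004596, minus strand) was at 47.9, 126, 71.0, 224 and 134 TPM in the Shh tumors of 29048, 29050A, 38594A, R26P87 and R26P98 and at 71.1 to 164 TPM (median 95.5) in the Myc tumors. The Shh tumors spread on both sides of the Myc range, with the tumor of 29048 below it and that of R26P87 above. Its log2 fold change was -0.38 (standard error 0.31, interval -1.04 to 0.27, edgeR adjusted p = 0.348), whereas the difference was 0.01 on log2(TPM + 1), -0.43 among numbered and 0.63 among R26P mice. The data therefore give no direction for Yap1.

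Wwtr1 (chr3:57455649-57575910, minus strand) was at 78.3, 104, 168, 179 and 222 TPM in the Shh tumors of 29048, 29050A, 38594A, R26P87 and R26P98. In the Myc tumors it reached from 24.1 TPM in that of R26P115 to 282 TPM in that of 43987A, with a median of 107, so that the Shh tumors lay within the Myc range. The log2 fold change was -0.12 (standard error 0.43, interval -1.02 to 0.79, edgeR adjusted p = 0.848) and the difference on log2(TPM + 1) was 0.57, of opposite sign. Wwtr1 made up 44.4 to 70.3% of the summed TPM of Yap1 and Wwtr1 in the Shh tumors (median 62.0%) and 15.2 to 76.1% in the Myc tumors (median 49.5%), and the ranges overlapped.

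The Tead genes encode the DNA-binding partners of the co-activators, and their composition differed between the subgroups. Tead2 (chr7:45215753-45233644, plus strand), known for its expression in the early embryo and in neural progenitors, was at 72.2 TPM in the Shh tumor of 29048, 304 in that of 29050A, 215 in that of 38594A, 539 in that of R26P87 and 423 in that of R26P98. In the 11 Myc tumors it lay between 2.27 and 48.4 TPM with a median of 13.8, and the highest was the tumor of R26P170. The groups did not overlap, as was the case for 15.3% of all genes in TPM. The log2 fold change was 3.69 (standard error 0.63, interval 2.36 to 5.02, edgeR adjusted p = 0.00037), or 12.9-fold. On log2(TPM + 1) the difference was 4.37 (exact two-sided permutation test, p = 0.000458, the smallest that 5 tumors against 11 allow), and it was 4.11 among numbered and 4.35 among R26P mice.

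Tead2 was called on omission of any single tumor, with log2 fold changes from 3.40 to 3.98. Among the tumors induced at E6 alone, which leaves the 2 Myc tumors of 43825B (2.43 TPM) and R26P170 (48.4 TPM), the log2 fold change was 3.08 and the call was lost (edgeR adjusted p = 0.128). The summed TPM of the 6 neuronal markers ranged from 129 to 3628 in the Shh and from 12.5 to 480 in the Myc tumors, and their part in the level of Tead2 was not tested. The Shh tumor with the highest neuronal sum, that of 29048, had the lowest Tead2 level of its group. It was also the lowest Shh tumor in TPM of Yap1, Wwtr1, Tead1, Tead3, Amotl2 and Lats1.

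Tead4 (chr6:128224288-128300823, minus strand), best known for its role in the trophectoderm, was the lowest Tead gene in each group. It was at 0.497, 0.558, 0.367, 0.863 and 0.324 TPM in the Shh tumors of 29048, 29050A, 38594A, R26P87 and R26P98, which are 18, 44, 14, 24 and 9 reads. In the Myc tumors it was at 0.337 to 7.94 TPM (median 1.31, 14 to 308 reads). All 5 Shh tumors lay below all 6 intracranial Myc tumors, and they overlapped with the extracranial ones. Against the intracranial tumors 21.7% of all genes were without overlap in TPM. The log2 fold change was -2.41 (standard error 0.69, interval -3.86 to -0.95, edgeR adjusted p = 0.0134). On log2(TPM + 1), which understates changes of such low values, it was -0.75 (limma adjusted p = 0.0798), and -0.59 among numbered and -1.23 among R26P mice. An exact two-sided permutation test of the difference of -0.75 gave an unadjusted p = 0.00916.

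Tead1 (chr7:112679318-112906807, plus strand), a widely expressed member, was at 24.4, 67.4, 48.7, 84.8 and 60.9 TPM in the Shh tumors of 29048, 29050A, 38594A, R26P87 and R26P98 and at 34.5 to 105 TPM (median 74.5) in the Myc tumors. The groups overlapped, with only the Shh tumor of 29048 below the Myc range. Its log2 fold change of -0.83 (standard error 0.30, interval -1.47 to -0.20, edgeR adjusted p = 0.0427) had an adjusted p under 0.05 but did not reach the fold threshold, and without R26P87 it did (-1.01, adjusted p = 0.03). Without 29048 and R26P115 the edgeR adjusted p was 0.0792. On log2(TPM + 1) the difference was -0.33 (limma adjusted p = 0.416), with -0.59 among numbered and 0.03 among R26P mice, so that the test result depended on the scale. Tead3 (chr17:28331671-28350817, minus strand) was at 12.4, 32.2, 28.7, 31.5 and 34.1 TPM in the same 5 Shh tumors and at 8.52 to 61.4 TPM (median 25.6) in the Myc tumors. After TMM it differed by -0.44 (log2, standard error 0.38, edgeR adjusted p = 0.382) but on log2(TPM + 1) by 0.18, so that no direction is given.

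As shares of the summed TPM of the 4 Tead genes, which are free of the scaling between tumors, Tead2 made up 65.9 to 82.1% in the Shh tumors (median 75.2%) and 2.96 to 30.0% in the Myc tumors (median 9.94%). Tead1 made up 11.7 to 22.2% in the Shh and 46.1 to 75.2% in the Myc tumors. Tead3 held 4.80 to 11.4% in the Shh and 13.2 to 47.1% in the Myc tumors, and Tead4 at most 0.454% and 4.92%. Neither Tead1, Tead2 nor Tead3 shares overlapped between the subgroups, and the rise of 1 share lowers the others. The summed Tead TPM was 110 to 656 in the Shh tumors (median 404) and 46.5 to 169 in the Myc tumors (median 115).

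**Figure D3:**
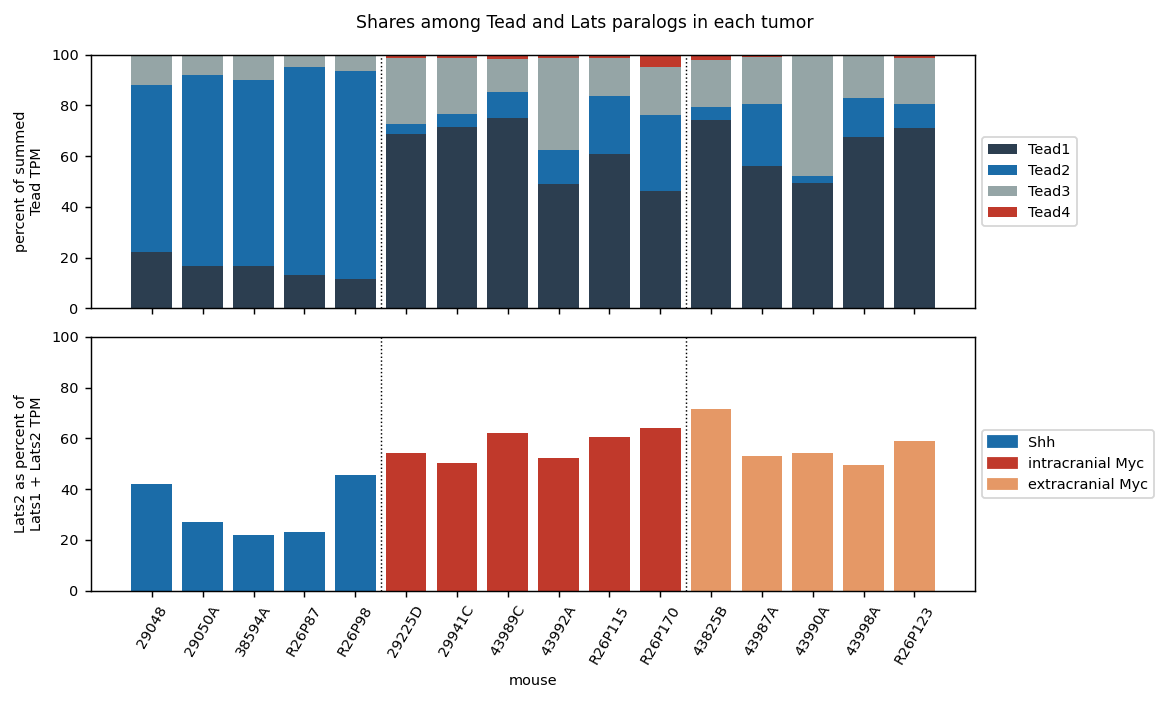
Percent of the summed TPM of the 4 Tead genes held by each (top) and Lats2 as a percent of Lats1 plus Lats2 (bottom), 1 bar per tumor, with dotted lines between Shh, intracranial Myc and extracranial Myc tumors. Tead2 fills 65.9 to 82.1% of the bar in the 5 Shh tumors and 2.96 to 30.0% in the 11 Myc tumors.

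Ankrd1, Amotl2 and Lats2 are known targets of the co-activators, and the data bear on them together, since Ankrd1 and Lats2 were lower in the Shh tumors and Amotl2 was not. Their promoters are shown from RefSeq (GRCm38.p6), from 250 bases before to 50 bases after the transcription start, 5′ to 3′ on the strand of the gene, with each match to the Tead core motif GGAATG or its reverse complement CATTCC in capitals. A promoter entry was matched for 8 of the 10 genes. Ankrd1 (chr19:36119795-36120094, minus strand) holds 2 matches, beginning at positions -210 and -123 from the start, and Amotl2 (chr9:102717554-102717853, plus strand) holds 1 at -65. The more upstream of the 2 Lats2 entries (chr14:57746074-57746373, minus strand) holds 1 at 4. Each of these entries lies within the GENCODE span of its gene, so that the outermost annotated start was not covered.
Ankrd1: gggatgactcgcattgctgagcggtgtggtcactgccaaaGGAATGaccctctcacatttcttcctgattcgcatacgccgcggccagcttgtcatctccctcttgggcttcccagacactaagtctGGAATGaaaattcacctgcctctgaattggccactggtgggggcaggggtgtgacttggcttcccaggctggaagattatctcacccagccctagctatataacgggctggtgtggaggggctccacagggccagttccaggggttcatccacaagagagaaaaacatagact
Amotl2: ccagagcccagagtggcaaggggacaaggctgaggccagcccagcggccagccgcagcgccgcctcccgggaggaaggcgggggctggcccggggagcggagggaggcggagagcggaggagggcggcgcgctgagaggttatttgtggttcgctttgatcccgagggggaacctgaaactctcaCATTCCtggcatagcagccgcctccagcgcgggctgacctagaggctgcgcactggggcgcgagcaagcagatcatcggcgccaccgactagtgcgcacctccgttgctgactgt
Lats2: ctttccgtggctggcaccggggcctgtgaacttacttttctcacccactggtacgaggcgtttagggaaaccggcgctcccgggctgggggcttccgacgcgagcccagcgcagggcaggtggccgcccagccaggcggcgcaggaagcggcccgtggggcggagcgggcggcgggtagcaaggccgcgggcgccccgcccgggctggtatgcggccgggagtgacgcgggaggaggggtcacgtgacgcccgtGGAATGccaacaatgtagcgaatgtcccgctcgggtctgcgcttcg
The motif was found in 14.7% of all 32851 promoters of this length, and in 8 of the 12 promoters of the 8 genes (6 genes), of which the 2 of Wwtr1 overlap and hold 1 and the same match. It was also found in promoters of Yap1, Wwtr1 and Tead3 and in neither of those of Tead2 and Lats1. A match is no evidence of binding, which was not measured.

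Ankrd1 (chr19:36111961-36120099, minus strand), a striated muscle and cytoskeletal gene widely used as a readout of Yap and Taz, was the most uneven of the 10 genes among the Myc tumors. It was at 0.241, 0.0663, 0.0913 and 0.126 TPM in the Shh tumors of 29048, 29050A, 38594A and R26P98, which are 5, 3, 2 and 2 reads, and at 2.88 TPM (46 reads) in that of R26P87. In the intracranial Myc tumors it was lowest at 0.464 TPM in that of R26P115, with a median of 5.99, and highest at 491 TPM in that of 43992A. In the extracranial Myc tumors of 43825B, 43987A, 43990A, 43998A and R26P123 it was at 393, 17.2, 0.124, 0.0419 and 49.4 TPM. The Myc tumors thus reached from the level of the Shh tumors to far above it.

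The log2 fold change of Ankrd1 was -7.71 (standard error 2.43, interval -12.85 to -2.57, edgeR adjusted p = 0.0224). It was -10.03 without the Shh tumor of R26P87 and -6.82 without the Myc tumor of 43992A, and was called in both cases. The call was lost at values from -7.50 to -7.39 without any 1 of the Shh tumors of 29048, 38594A, 29050A and R26P98 (adjusted p from 0.0522 to 0.0543), at -7.36 with the naming scheme as a covariate (0.0534), at -7.66 without the 3 deep libraries (0.0533) and by limma on log2(TPM + 1) (-3.13, adjusted p = 0.0917). An exact two-sided permutation test of the same difference gave p = 0.0311, and it was -3.76 among numbered and -1.85 among R26P mice. Of 8 skeletal muscle markers, 6 were also lower in the Shh tumors, where 13.1% of all genes were. By limma on log2(TPM + 1) it was 1 of the 8, where 6.06% of all genes were lower. By edgeR it was 3 without the Shh tumor of 29048 and 2 without any 1 of the other Shh tumors. The sum of the markers was 3.79 to 9.76 TPM in the Shh and 4.30 to 793 TPM in the Myc tumors. None of the 8 was at 0 throughout a group. The tumor of 43992A, highest in Ankrd1, had a muscle sum of 42.8 TPM, and that of R26P123, highest in the muscle sum, had 49.4 TPM of Ankrd1. The part of muscle tissue in Ankrd1 was not tested.

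Amotl2 (chr9:102716672-102733418, plus strand), a tight junction protein of the angiomotin family that binds Yap1 and restrains it, was at 74.3, 174, 82.2, 231 and 145 TPM in the Shh tumors of 29048, 29050A, 38594A, R26P87 and R26P98. In the Myc tumors its lowest level was 22.4, its median 39.6 and its highest 159 TPM. Only the Myc tumors of 29225D (159 TPM), 43990A (145 TPM) and R26P123 (75.9 TPM) reached the range of the Shh tumors. The log2 fold change was 0.75 (standard error 0.44, interval -0.17 to 1.67, edgeR adjusted p = 0.193), and on log2(TPM + 1) it was 1.41 (limma adjusted p = 0.0197), so that the call depended on the scale. The estimate was positive under both.

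Among the 11 Myc tumors, no relation of the target genes to the level of Yap1 or Wwtr1 passed the test in the 6 pairs examined. Pearson's r of log2(TPM + 1) ranged from -0.43 (Lats2 with Wwtr1, permutation p = 0.189) to 0.19 (Ankrd1 with Wwtr1, permutation p = 0.576), Spearman's rho from -0.35 to 0.27, and all 6 adjusted p-values of r were 0.897. For Ankrd1 with Yap1, r was 0.08 and rho 0.18, and without the 2 tumors farthest from the median of Yap1 r was -0.35. At 11 tumors such relations were estimated only coarsely, as r of Ankrd1 with Yap1 lay between -0.30 and 0.38 on omission of single tumors. Without the tumor of 29941C, r of Lats2 with Wwtr1 was -0.64 (permutation p = 0.047, unadjusted). The Shh tumors were left out, so that each relation runs within 1 subgroup.

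**Figure D4:**
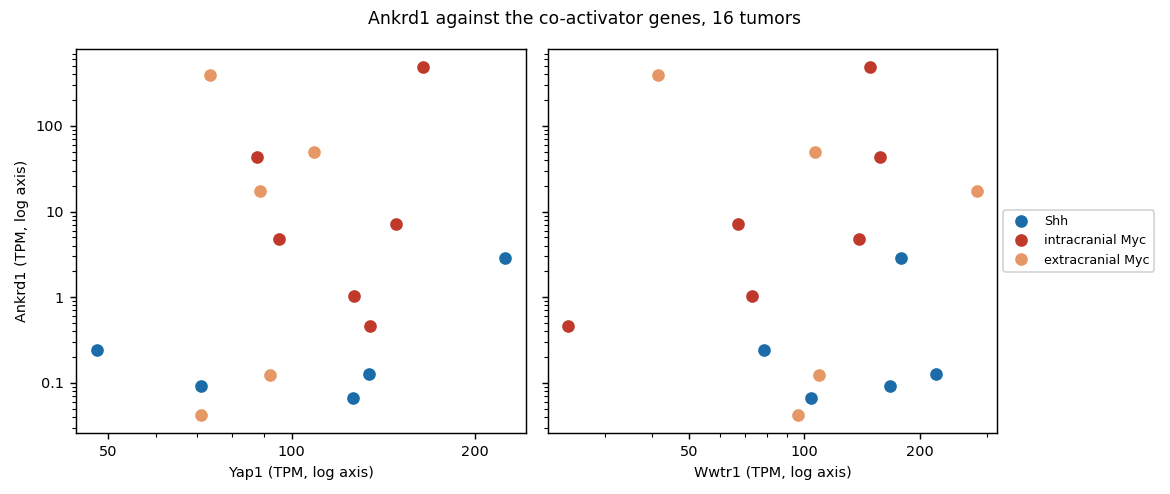
Ankrd1 against Yap1 (left) and Wwtr1 (right), in TPM on log axes, 1 point per tumor colored by group. Ankrd1 spans 0.0419 to 491 TPM among the 11 Myc tumors (r = 0.08 and 0.19).

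Over all 16 tumors, the genes most like each of 3 members in log2(TPM + 1), among 14793 genes averaging 50 counts or more per tumor, were as follows. For Yap1 they included Zfp652 (r = 0.86) and Ascc2 (0.83), and among the 11 Myc tumors alone the r of these genes was 0.72 and 0.53. For Wwtr1 they were Pemt (0.86), Spats2 (0.84) and Svbp (0.82), with 0.86, 0.81 and 0.81 among the Myc tumors. For Ankrd1 they were Zfp64 (0.90), Rab5c (0.89) and U90926 (0.88), with 0.91, 0.88 and 0.87 among the Myc tumors. The points share the scaling of TPM and the division into subgroups, and these r are the highest of many.

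Intracranial and extracranial Myc tumors were not separated by these genes. None of the 10 passed the threshold, and 1 of all 21261 genes tested did (0.00470%). DESeq2's Wald test gave no p-value for Ankrd1 and called none of the rest of the 10, where it called 2.30% of all genes. At an unadjusted p under 0.05, edgeR found 2 of the 10 genes, against 12.3% of all genes. Of these 2, Yap1 was at 127, 148, 87.6, 164, 134 and 95.5 TPM in the intracranial tumors of 29225D, 29941C, 43989C, 43992A, R26P115 and R26P170 and at 73.4, 88.7, 92.0, 71.1 and 109 TPM in the extracranial tumors of 43825B, 43987A, 43990A, 43998A and R26P123. The difference was 0.58 (log2, standard error 0.22, interval 0.10 to 1.06, unadjusted p = 0.0214, edgeR adjusted p = 0.366), and the groups overlapped, as they did for each of the 10 genes (0.847% of all genes had no overlap). Tead4 was at 1.12 to 7.94 TPM (median 1.91) in the intracranial and 0.337 to 1.62 TPM (median 0.988) in the extracranial tumors, and the log2 fold change came to 1.53 (standard error 0.67, unadjusted p = 0.0412, edgeR adjusted p = 0.391). Without the tumor of R26P170, at 7.94 TPM, the fold change of Tead4 was 0.86 (edgeR adjusted p = 0.576).

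The other 8 genes had log2 fold changes from -0.31 (Amotl2) to 0.47 (Tead2) between the sites. Their intervals differed widely in what they leave open: for Lats1 the interval was -0.35 to 0.55 and for Lats2 -0.34 to 0.49, whereas for Tead2 it was -1.28 to 2.21 and for Ankrd1 -4.22 to 4.27. A difference of 1 on the log2 scale thus lies outside the intervals of both Lats genes and inside those of Tead2 and Ankrd1.

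Against each Myc site separately, with the Shh tumors shared by both comparisons, Tead2 was higher by 3.49 (standard error 0.79, edgeR adjusted p = 0.00458) against intracranial and by 3.97 (0.87, 0.00341) against extracranial Myc tumors on the log2 scale, and by 4.72 against the latter without the tumor of 43987A. Lats2 was at -1.32 and -1.24 and Ankrd1 at -7.76 and -7.67, all past the threshold. By limma on log2(TPM + 1) Lats2 was at -0.81 and -0.77 (adjusted p = 0.00739 and 0.0135), below the fold threshold. DESeq2's Wald test gave no p-value for Ankrd1 against either site. Without the Myc tumor of 43992A the Ankrd1 value against intracranial tumors was -4.64 and the call was lost (adjusted p = 0.0997), and without that of 43825B it was -5.15 against extracranial tumors (adjusted p = 0.10). Without the Shh tumor of R26P87 Ankrd1 was at -10.07 and -9.99 against the 2 sites and was called against both, whereas the call against either site was lost without any 1 of the other Shh tumors (edgeR adjusted p from 0.0669 to 0.0724), with the naming scheme as a covariate (0.0945 and 0.0691) and by limma on log2(TPM + 1) (0.167 for both). Tead4 was at -2.92 (adjusted p = 0.00372, and at -2.25, still called, without R26P170) and -1.37 (adjusted p = 0.109), called against the intracranial tumors alone, and the difference between the sites is the one given above, which was not called. Of the 10 genes 4 and 3 passed, against 23.0% and 25% of all genes.

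In the wider pathway, of 18 known targets of Yap, Taz and Tead beside the 10 genes, 8 fell and 2 rose in the Shh tumors, where 13.1% of all genes fell and 12.9% rose, with a median log2 fold change of -1.56 against -0.15 over all genes. The 4 lowest were Ccdc80, a matrix protein (-4.95, edgeR adjusted p = 0.00375), Myof, a membrane repair protein (-4.65, 3.56e-05), Igfbp3, which binds insulin-like growth factors (-4.17, 0.00149), and Axl, a receptor tyrosine kinase (-3.71, 6.51e-05). The most used readouts Ctgf (-2.65, 0.00529) and Cyr61 (-2.19, 0.0201), matricellular proteins, also fell. Myof was at 4.16 to 10.4 TPM in the Shh and 20.7 to 233 TPM in the Myc tumors. These ranges did not overlap, as was the case for 15.3% of all genes in TPM. Axl was at 19.3 to 47.8 TPM in the Shh and 36.5 to 581 TPM in the Myc tumors, with overlap.

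The other 2 targets went up: Fjx1, a Golgi-resident regulator of Fat and Dachsous cadherins, rose by 3.47 (edgeR adjusted p = 8.26e-05), and Nuak2, a kinase of the AMPK family, by 1.86 (0.00228). Fjx1 was at 148 to 429 TPM in the Shh and 3.15 to 36.9 TPM in the Myc tumors. By limma on log2(TPM + 1) 6 of the 18 fell and 2 rose, and the median was -0.18, against 0.20 over all genes. All 6 fibroblast markers were lower in the Shh tumors as well, where 13.1% of all genes were. Their sum was 117 to 508 TPM in the Shh and 529 to 7742 TPM in the Myc tumors, and no marker was at 0 throughout a group. Their part in the levels of the targets was not tested.

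Of 25 upstream regulators, 3 rose and 6 fell in the Shh tumors, against 12.9% and 13.1% of all genes, with a median log2 fold change of -0.03. Those that rose were the large cadherins Dchs2 (6.23, edgeR adjusted p = 8.17e-05), Fat3 (4.71, 6.01e-05) and Dchs1 (2.20, 0.0163). Dchs2 was at 1.13 to 9.86 TPM in the Shh and at most 0.183 TPM in the Myc tumors. The 4 lowest were Ptpn14, a phosphatase that binds Yap1 (-3.29, 8.42e-07), Wtip, a LIM protein that binds Lats kinases (-1.94, 0.000401), Wwc2, a relative of Kibra (-1.70, 0.000289), and Frmd6, a FERM domain protein (-1.64, 0.00551). Ptpn14 was at 2.91 to 5.18 TPM in the Shh and 15.3 to 40.9 TPM in the Myc tumors. The kinases that act on Lats, Stk3 (-0.24) and Stk4 (-0.14), did not pass the test, and neither did the adaptor Mob1b (-0.19, edgeR adjusted p = 0.644), whereas the adaptors Mob1a (-1.41) and Sav1 (-1.11) fell.

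The split of this list depended on the scale, the test and 1 tumor. By limma on log2(TPM + 1) 8 of the 25 rose and 3 fell, where 18.7% of all genes rose and 6.06% fell, and by DESeq2's Wald test 7 rose and 6 fell, where 14.4% and 14.7% did. Without the tumor of R26P115 6 rose and 6 fell, as without those of 29048 and R26P115 together, and without that of 29048 alone 4 rose and 5 fell. Of the Vgll cofactors, which compete with the co-activators for Tead factors, 3 of 4 had reads and 1, Vgll3, fell (-4.07, edgeR adjusted p = 0.00212), from 3.70 to 99.3 TPM in the Myc to 0.773 to 6.02 TPM in the Shh tumors. Between the Myc sites edgeR called none of the 25 regulators, 3 cofactors and 18 targets, with 2, 0 and 2 at an unadjusted p under 0.05, against 12.3% of all genes. DESeq2's Wald test called 1 of them, where it called 2.30% of all genes, the regulator Wwc1 (Kibra), higher in the intracranial tumors (3.99, adjusted p = 0.0207, against 3.91 and 0.348 by edgeR).

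**Figure D5:**
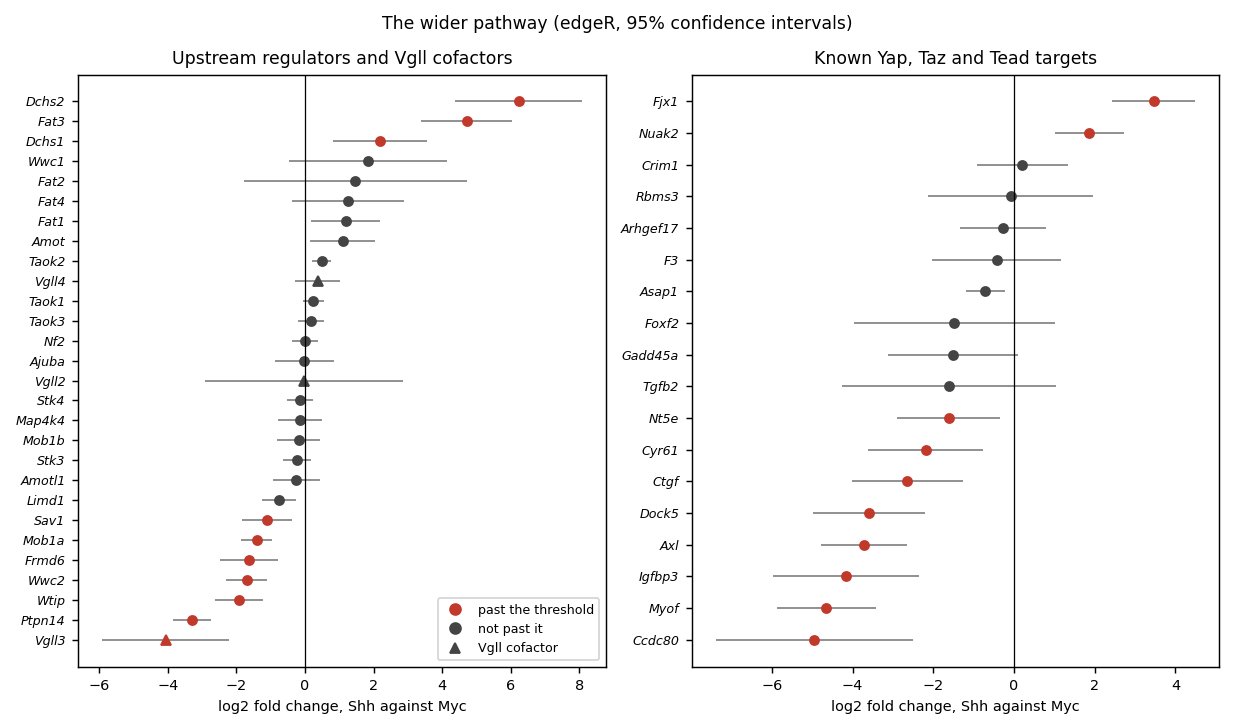
Log2 fold changes of Shh against Myc tumors with 95% confidence intervals (edgeR) for 25 upstream regulators and 3 Vgll cofactors (left, triangles for cofactors) and 18 known targets (right). Red symbols passed the threshold, and on the right 8 of them lie below 0 (Ccdc80 to Nt5e) and 2 above (Nuak2 and Fjx1).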

How the data were processed

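RNA-seq of 16 mouse rhabdoid tumors was analysed. Per the labels, libraries were stranded, polyadenylated and paired-end, and the submitters' processing notes name Trim Galore, FastQC, STAR 2.5.3a and Picard with mm10. The authors deposited raw counts per gene, without normalization, and TPM values of the same tumors, and the annotation behind both is not given in the sources used here. The labels give sites, the study's list of mice the subgroups.

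Genes with a count in any tumor of a fit were tested with edgeR 4.0.16 (TMM, glmQLFit, glmQLFTest) in R 4.3.3. Adjustment was by Benjamini and Hochberg over the whole table. Fits compared Shh with Myc tumors, the 2 Myc sites among Myc tumors, and Shh with each Myc site in a fit of 3 groups. A call needed an adjusted p under 0.05 and a log2 fold change beyond 1 in either direction. The code was tested on simulated data. Single values were compared on log2(TPM + 1) with two-sided exact permutation tests, relations with 100000 permutations (scipy 1.17.1), and figures drawn with matplotlib 3.10.9. Replicates are tumors of different mice. Positions of genes are those of GENCODE mouse release 21 (GRCm38).

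The 10 genes and the gene lists were chosen with earlier results of these data known. All 10 were named, and of the other lists the 4 highest and 4 lowest past the threshold with a mean count of at least 50. Genes named beyond this rule (Ctgf, Cyr61, Mob1a, Mob1b, Sav1, Stk3, Stk4, Wwc1) were chosen after their values were seen. The alternatives were limma 3.58.1 on log2(TPM + 1), DESeq2 1.42.0 and its size factors in edgeR, a filter on low counts (filterByExpr), no fold threshold, a pseudocount of 0.1, the naming scheme as a covariate, 43990A as intracranial, tumors induced at E6 alone and the omission of single tumors. The joint omissions of 29048 and R26P115 and of the 3 deepest libraries were chosen after the data were seen. A further gene that the rule on likeness to Yap1 named is not reported here.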

Additional observations from a re-analysis of the deposited data

Results flagged for a closer look

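Within the 3 groups of tumors, the 10 genes gave 30 sets of log2(TPM + 1) values, in which a single tumor that far from the rest is found by chance in about 1 in 20 sets. In 4 of them a tumor stood apart from the others of their group. Tead3 was at 3.75 in the Shh tumor of 29048, against 4.89 to 5.13 in the other Shh tumors. Tead4 was at 3.16 in the intracranial Myc tumor of R26P170, against 1.09 to 1.71 in the others. Ankrd1 was at 1.96 in the Shh tumor of R26P87, against 0.09 to 0.31 in the others. Lats1 was at 4.23 in the extracranial Myc tumor of 43825B, against 4.79 to 4.95 in the others.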

How the results depend on the processing

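No paired analysis was possible because the tumors all came from different mice. The planned comparison of protein sequences was not run. Depth limits Tead4 and, in the Shh tumors, Ankrd1, which rest on few reads.

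Of 887 values of single genes under alternatives, 802 kept their direction and their side of the threshold, 29 lost a call, 11 gained one and 45 changed sign, none of the last from a called value. Counts of the 10 genes past the threshold were within 1.5 times the main count except by limma on log2(TPM + 1), with 2 between Shh and Myc and 1 between Shh and extracranial Myc tumors. On omission of single tumors, which stayed within that range, they were 3 to 5 between Shh and Myc, 2 to 3 against extracranial and 3 to 6 against intracranial Myc tumors, and 0 between the Myc sites. Over all genes, 3533 passed among tumors induced at E6 alone, and DESeq2's Wald test called 490 between the Myc sites. On omission of single tumors 4766 to 6649, 4076 to 5945, 4524 to 6035 and 0 to 3 genes passed between Shh and Myc, Shh and intracranial Myc, Shh and extracranial Myc and between the Myc sites. Where the cause is not named, it was not tested.

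Signs that changed were of uncalled genes. For Shh against Myc, Yap1 was at 0.013 (0.012 with a pseudocount of 0.1), Wwtr1 at 0.57 (0.58) and Tead3 at 0.18 (0.19) on log2(TPM + 1), by limma and by the exact permutation test, and Wwtr1 at 0.19 among tumors induced at E6 alone and -0.31 to 0.11 on omission of single tumors. Against intracranial Myc, Tead3 was at 0.041 by limma and Wwtr1 at -0.17 to 0.20 on omission of single tumors. Against extracranial Myc, limma gave 0.29 for Yap1, 0.40 for Wwtr1 and 0.35 for Tead3, 43990A as intracranial gave 0.0070 for Tead3, and omission of single tumors gave -0.37 to 0.17 for Yap1, -0.49 to 0.26 for Wwtr1 and -0.41 to 0.0070 for Tead3. Between the Myc sites, 43990A as intracranial gave -0.0059 for Tead2, -0.52 for Ankrd1, 0.44 for Amotl2 and -0.021 for Lats2, and Ankrd1 was at -0.15 on log2(TPM + 1) by limma and the permutation test and at -0.72 with the naming scheme as a covariate. Omission of single tumors gave -0.51 to 0.24 for Wwtr1, -0.047 to 1.23 for Tead2, -3.03 to 2.58 for Ankrd1, -0.94 to 0.13 for Amotl2 and -0.0022 to 0.20 for Lats2.

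Among the Myc tumors, r without the 2 tumors farthest from the median was -0.35 for Ankrd1 with Yap1, -0.059 for Ankrd1 with Wwtr1 and 0.36 for Amotl2 with Yap1. On omission of single tumors it was -0.30 to 0.38, -0.030 to 0.50 and -0.27 to 0.17 for these, -0.19 to 0.045 for Amotl2 with Wwtr1, -0.17 to 0.38 for Lats2 with Yap1 and -0.64 to -0.26 for Lats2 with Wwtr1.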
